A study of Homo sapiens with 18 samples.

Results

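Integrins and laminins are the receptors and the matrix proteins through which a cell holds on to a basement membrane. RNA of their 35 chains, 17 integrin alpha, 8 integrin beta and 10 laminin chains, was followed in U87, an established human glioblastoma line. The chains were picked by gene symbol from the deposited tables, with earlier results of these data known. They made up 35 of 60675 listed gene IDs. All 35 were listed in every table; 23 reached the level needed for testing (at least 1 TPM in at least 3 libraries) and 12 did not. The cells, which carried no genetic modification, received 1 dose of 100 nM bexarotene or of a rexinoid known here only by its code, A34, A41, A80 or A98, or the vehicle ethanol, and RNA was taken after 24 h. Each of the 6 groups had 3 libraries. A rexinoid is a ligand of the retinoid X receptors, nuclear receptors that act on genes together with partners such as the retinoic acid receptors. Ethanol and bexarotene were the controls, and the comparisons ask which chains each compound changed and whether the compounds differed. Whether the libraries of 1 group stem from separate cultures is not stated, so the p-values reflect the variation among libraries, in part perhaps technical.

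An integrin is a pair of an alpha and a beta chain that spans the membrane; outside it binds matrix, and inside it ties to actin through talin, kindlin and focal adhesion kinase. The alpha chain sets much of the ligand choice: the chains of ITGA3, ITGA6 and ITGA7 paired with that of ITGB1 bind laminin, those of ITGA1, ITGA2, ITGA10 and ITGA11 bind collagen, and those of ITGA5 and ITGAV bind proteins with the RGD motif such as fibronectin and vitronectin. A laminin is a cross-shaped trimer of an alpha, a beta and a gamma chain that assembles into the sheet of a basement membrane. LAMB1 is a classical gene of retinoic acid response in mouse teratocarcinoma cells, and glioma cells are known for moving along vessels whose basement membranes hold laminin. These statements are background and not results of the libraries described here.

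Levels are given as scaled TPM. TPM is the share of a transcript among all transcripts of a library, corrected for length, and was divided by a factor for each library, because ribosomal RNA took 35.5% of TPM in ethanol 2, 44.9% in bexarotene 1 and 56.1% in A41 2 against 0.317% to 4.32% in the other 15 libraries. Libraries are named by group and by the replicate number of their titles. Each held 1.31 to 3.89 gigabases of aligned sequence. The cells had high RNA for vimentin (VIM, mean 4058 scaled TPM) and CD44 (1015), lower values for the astrocyte genes SLC1A3 (20.9) and GFAP (0.788), and little for markers of other cells: the leukocyte markers PTPRC, CD3E and CD14 averaged 0.00271 to 0.0953, and platelet PF4 was listed at 0 in all 18. In bulk RNA, fewer cells of a type and less RNA per cell cannot be told apart.

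The chains covered a wide range of levels, and ITGB1 and ITGA3 led in every library. ITGB1, the beta chain shared by most integrins, had the highest mean, 326 scaled TPM (range 295 to 379 over 18 libraries). The laminin-binding ITGA3 followed at 281, then the fibronectin-binding ITGA5 at 167 and ITGB3, the beta chain that pairs with that of ITGAV in the vitronectin receptor, at 129.7. Together the integrin alpha chains summed to 599 scaled TPM and the beta chains to 499. ITGA3 made up 46.9% of the alpha sum and ITGB1 65.5% of the beta sum.

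**Figure D1:**
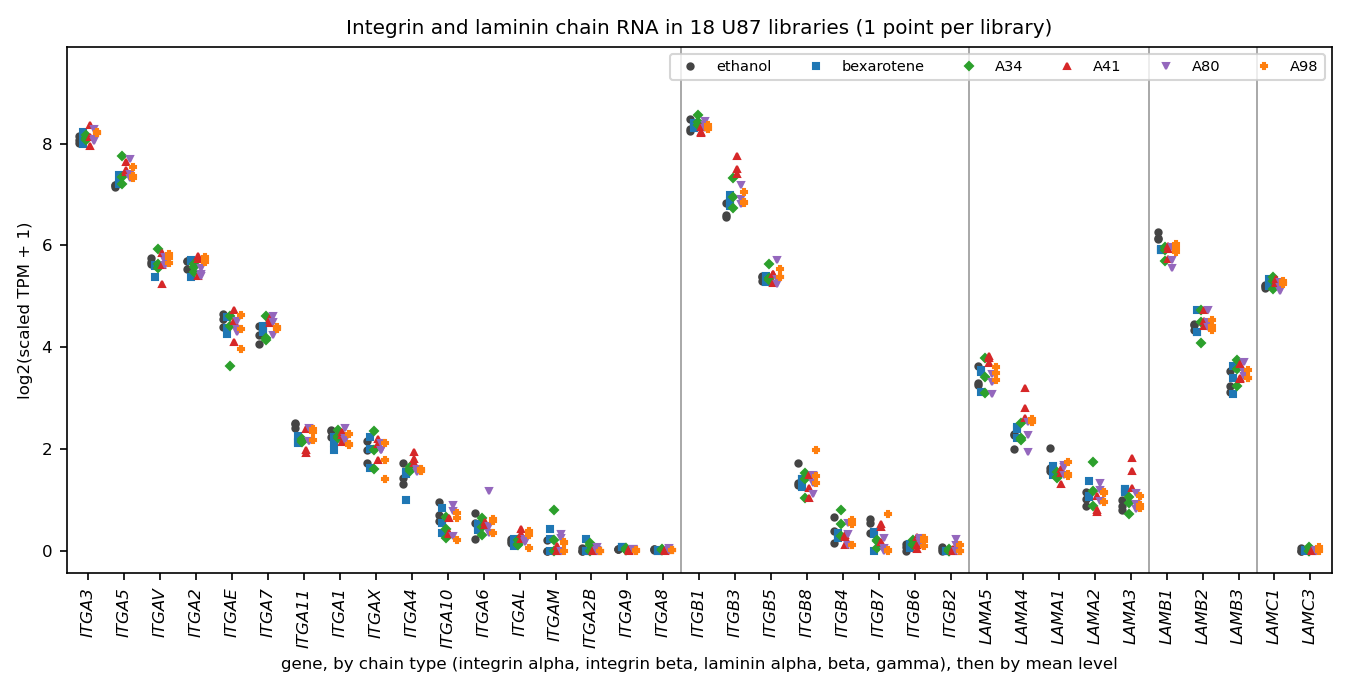
Level of each of the 35 chain genes as log2(scaled TPM + 1), 1 point per library, coloured by treatment group and ordered by chain type and mean level. ITGB1 and ITGA3 lie at the top in every library, and the 12 chains that were not tested lie near 0.

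Among the leading alpha chains, the laminin receptor chain ITGA3 had scaled TPM values of 257, 283 and 269 in ethanol, 301, 255 and 277 in bexarotene, 268, 286 and 274 in A34, 248, 331 and 279 in A41, 270.3, 265 and 313 in A80, and 297, 295 and 293 in A98. All 5 treated groups overlapped with ethanol except A98, whose 3 libraries lay above the 3 ethanol libraries by a small margin. ITGAV, the alpha chain of the vitronectin and latent TGF-beta receptors, had 52.9, 48.6 and 50.4 in ethanol, 40.4, 47.3 and 47.7 in bexarotene, 60.1, 48.6 and 46.1 in A34, 57.0, 36.9 and 47.8 in A41, 53.4, 50.6 and 48.2 in A80, and 55.8, 53.0 and 49.6 in A98. The 3 bexarotene libraries lay below the 3 ethanol libraries, and A41 2, rich in ribosomal RNA, was the lowest of the 18. ITGA2, a collagen receptor chain, had 45.1, 50.4 and 50.5 in ethanol, 40.9, 51.8 and 50.6 in bexarotene, 48.7, 46.7 and 43.7 in A34, 54.3, 41.3 and 51.9 in A41, 46.0, 41.1 and 42.1 in A80, and 50.01, 53.8 and 52.4 in A98. Every treated group overlapped with ethanol.

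Of the beta chains, ITGB1 had scaled TPM values of 303, 357 and 310.4 in ethanol, 337, 339.8 and 315 in bexarotene, 340.5, 379 and 327 in A34, 319.8, 295 and 300.0 in A41, 346, 328 and 317 in A80, and 313, 314 and 327 in A98. No treated group separated from ethanol. ITGB5, a further partner of ITGAV, had 38.5, 41.3 and 40.5 in ethanol, 38.8, 37.7 and 41.3 in bexarotene, 38.8, 40.0 and 48.5 in A34, 37.4, 42.1 and 42.5 in A41, 36.8, 39.5 and 51.4 in A80, and 40.8, 40.9 and 45.5 in A98. Here too every treated group overlapped with ethanol, and the highest values were those of A34 3 and A80 3. ITGB8, which with ITGAV binds latent TGF-beta, was low, with 1.501, 2.31 and 1.44 in ethanol, 1.38, 1.66 and 1.65 in bexarotene, 1.90, 1.67 and 1.04 in A34, 1.80, 1.04 and 1.34 in A41, 1.17, 1.80 and 1.53 in A80, and 1.53, 2.95 and 1.76 in A98, and its groups overlapped.

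Laminin RNA came mainly from beta and gamma chains. LAMB1 averaged 60.1 scaled TPM, LAMC1 37.1 and LAMB2 21.3, while the 5 alpha chains together summed to 18.9, of which LAMA5 made up 53.6% and LAMA4 23.4%. LAMB3, known from epithelial laminin, averaged 9.98, LAMA1 1.99, LAMA2 1.17 and LAMA3 1.14. The scarcest chain type of the trimer at the RNA level was alpha in all 18 libraries, where the alpha sum was at most 26.6 and the gamma sum at least 33.3. LAMC1 varied least of the 23 tested chains, with a highest library 1.21 times the lowest, and LAMA3 varied most, with 3.89 times.

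LAMC1, the gamma chain of most laminins, had scaled TPM values of 36.5, 34.7 and 36.0 in ethanol, 39.4, 36.0 and 37.1 in bexarotene, 40.5, 38.5 and 34.5 in A34, 39.3, 37.9 and 37.5 in A41, 38.1, 33.3 and 35.3 in A80, and 38.7, 36.7 and 37.3 in A98. The A41 and A98 libraries all lay above the ethanol libraries, by little. LAMA5, an alpha chain of vascular and epithelial laminins, had 11.5, 8.57 and 8.80 in ethanol, 10.8, 7.72 and 10.4 in bexarotene, 12.8, 9.73 and 7.63 in A34, 11.9, 12.7 and 13.2 in A41, 8.96, 7.49 and 10.1 in A80, and 11.2, 10.2 and 9.21 in A98. Only the 3 A41 libraries all lay above ethanol. LAMB2 had 20.8, 20.6 and 19.1 in ethanol, 25.6, 18.8 and 18.8 in bexarotene, 25.5, 21.6 and 15.9 in A34, 22.0, 25.5 and 20.4 in A41, 25.5, 20.1 and 21.5 in A80, and 22.2, 20.3 and 19.1 in A98, with overlap in every group. LAMA5 lies across from ADRM1, a gene of the proteasome on the opposite strand with 162 scaled TPM, and how strand was treated in counting is not stated in the labels, so its value may hold reads of that gene.

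In ITGAE and ITGAX, RNA of the chain was present while that of the partner it is known for was low. ITGAE, the alpha chain of a T cell integrin, averaged 20.3 scaled TPM, while ITGB7, with which it forms that integrin, averaged 0.221. ITGAX, a myeloid alpha chain, averaged 2.93 and its partner ITGB2 averaged 0.0254, with 11 libraries listed at 0. ITGA7, a laminin receptor chain best known from muscle that pairs with ITGB1, averaged 19.9, and the muscle marker DES averaged 0.0372. ITGA7 and ITGAE each share their locus with expressed genes on the opposite strand (BLOC1S1 at 62.8 and METTL7B at 19.5 for ITGA7, HASPIN at 7.48 for ITGAE), and the part of those genes in the values was not tested. Of the collagen receptor chains, ITGA1 averaged 3.72, with PELO at 18.1 overlapping it on the same strand, and ITGA11 3.76; ITGA4, which binds fibronectin and VCAM1, averaged 2.00.

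The 12 chains below the test level averaged at most 0.498 scaled TPM. They held the laminin receptor chains ITGA6 (0.455) and ITGB4 (0.302), which pair in the hemidesmosome, the leukocyte chains ITGAL (0.161), ITGAM (0.129), ITGB2 and ITGB7, the platelet chain ITGA2B (0.0259), ITGA8 (0.0122), ITGA9 (0.0235), ITGA10, ITGB6 (0.106) and LAMC3 (0.0108). ITGA6 reached 1 TPM in 1 library, A80 1 at 1.25, and none of the other 11 did in any.

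Of the 23 chains tested, 1 was called in A41 against ethanol at an adjusted p under 0.05, and 0 were called in each of the other 4 comparisons with ethanol. The background, the share of all 18269 tested genes that was called, was 0.755% with A41 (138 genes, 93 higher and 45 lower), 0.0547% with bexarotene, 0.0821% with A34, 0.0438% with A80 and 0.0328% with A98. Adjusted p-values come from two-sided limma tests and were adjusted by Benjamini-Hochberg over the 18269 genes of each comparison. At an unadjusted p under 0.05 there were 2, 4, 8, 3 and 2 chains for bexarotene, A34, A41, A80 and A98, where the share over all tested genes was 5.75%, 10.7%, 10.4%, 9.41% and 6.63%. The mean of the 5 rexinoids against ethanol called 0 chains (background 0.203%), and 5 had an unadjusted p under 0.05 (background 10.3%). Median log2 fold changes of the 23 chains ran from 0.0019 with bexarotene to 0.0718 with A41, beside 0.0039 and -0.0068 over all tested genes. On TPM as deposited, with no division by factors, the median of all genes with A41 was -0.27 and 4 genes were called higher and 0 lower, and on TPM rescaled without ribosomal RNA genes the median was -0.16 with 40 called higher and 66 lower.

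**Figure D2:**
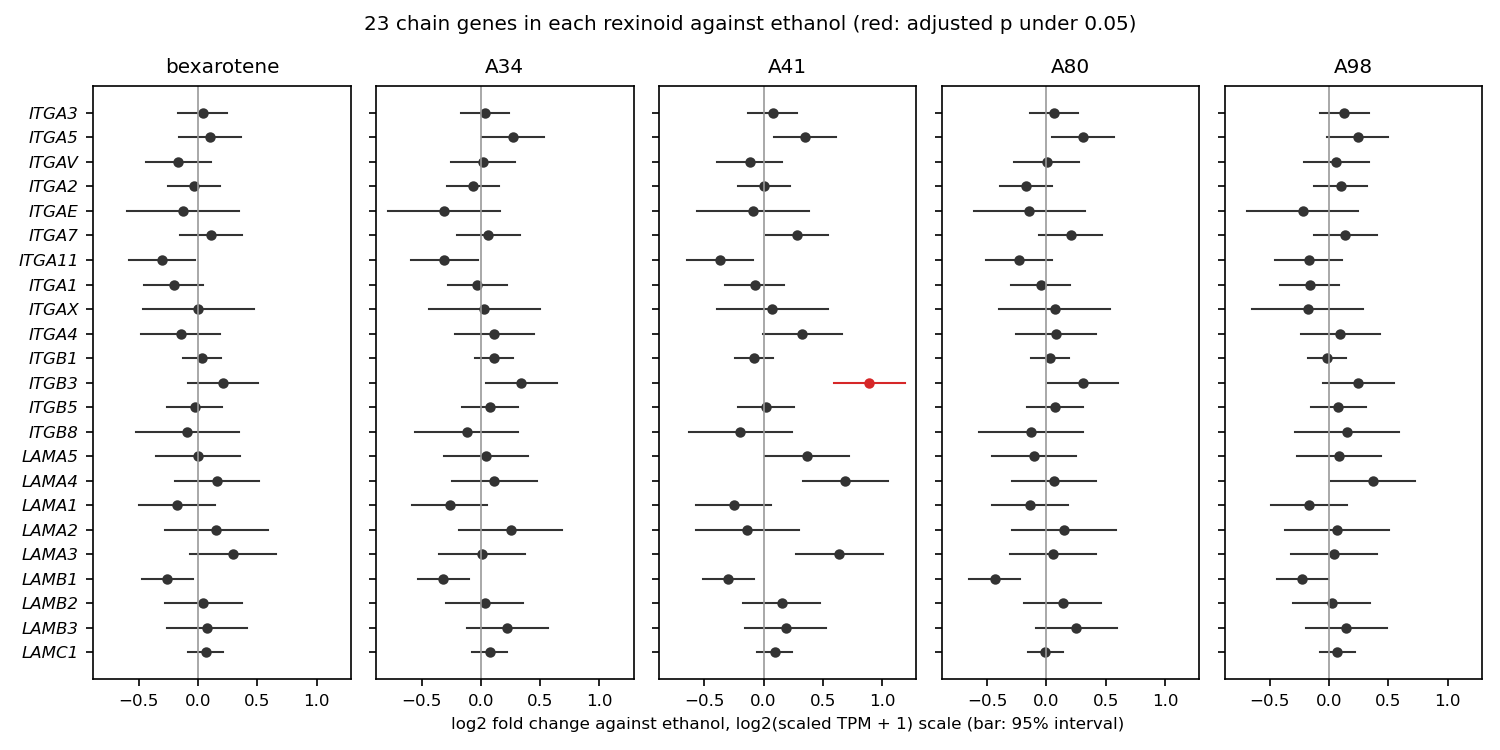
Log2 fold change against ethanol of the 23 tested chain genes in each of the 5 rexinoids, on the log2(scaled TPM + 1) scale, with 95% intervals. ITGB3 with A41, at 0.89, is the chain drawn in red as past an adjusted p of 0.05.

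ITGB3 rose with A41. The gene (ENSG00000259207) spans bases 47253827 to 47313743 of chromosome 17 on the plus strand of GRCh38. Its libraries had 112, 93.3 and 95.7 scaled TPM in ethanol, 125, 116 and 108 in bexarotene, 159, 123 and 105 in A34, 214, 181 and 169 in A41, 145, 119 and 111 in A80 and 131, 113 and 114 in A98. All A41 libraries lay above all 15 others, and the next was A34 1. Group means were 100.5 ± 10.5 in ethanol and 188 ± 23.8 in A41 (SD, n = 3 each), a log2 fold change of 0.89 (SE 0.14, 95% interval 0.60 to 1.19, limma adjusted p = 0.0047). The background for a rise was 0.509% of tested genes. The call held whichever 1 of the 6 libraries was left out (limma adjusted p from 0.0074 to 0.032). It was lost when ethanol 2, bexarotene 1 and A41 2, the libraries of high ribosomal RNA share, were omitted, where the log2 fold change was 0.87 and the adjusted p 0.10, with only ethanol and A41 in the fit (adjusted p = 0.062), and on TPM as deposited (0.55, adjusted p = 0.82).

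With the other rexinoids, ITGB3 had log2 fold changes of 0.21 with bexarotene, 0.34 with A34, 0.31 with A80 and 0.25 with A98 (limma adjusted p = 0.88, 0.40, 0.51 and 0.79). The mean of the 5 rexinoids, A41 included, was 0.40 above ethanol (SE 0.11, limma adjusted p = 0.21). With replicate number from the titles in the fit, ITGB3 passed with A34 (limma adjusted p = 0.039) and for the mean (0.0028). It did not pass there with bexarotene, A80 or A98 (0.61, 0.074 and 0.36). All 10 pairs of rexinoids, given at the same dose and time, were compared. A41 was above bexarotene by 0.68 (95% interval 0.38 to 0.98, adjusted p = 0.095), A34 by 0.55, A80 by 0.59 and A98 by 0.65 (adjusted p = 0.29, 0.16 and 0.11), so none of these pairs passed the threshold over all genes in the fit without replicate number (background 0.115% against bexarotene, 0.0712% against A34, 0.126% against A80 and 0.131% against A98). Of the 6 pairs without A41, the difference farthest from 0 was A34 above bexarotene by 0.13, with an interval from -0.17 to 0.43. In the F test for any difference among the 5 rexinoids, ITGB3 had an adjusted p of 0.28, and 0 chains passed by limma (background 0.0657%), with 3 at an unadjusted p under 0.05 (background 6.32%). Against bexarotene 0 chains passed with A34, A41, A80 or A98 (background 0%, 0.115%, 0% and 0.00547%), and 0, 4, 0 and 0 had an unadjusted p under 0.05 (background 5.2%, 6.23%, 6.06% and 6.86%).

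A ratio of 2 chains in the same library does not depend on the scaling. The ratio of ITGB3 to ITGB1 was 0.371, 0.261 and 0.308 in ethanol, 0.372, 0.340 and 0.343 in bexarotene, 0.466, 0.325 and 0.323 in A34, 0.671, 0.612 and 0.562 in A41, 0.420, 0.362 and 0.352 in A80 and 0.418, 0.360 and 0.348 in A98. The 3 A41 libraries again lay above the other 15. Means were 0.313 ± 0.0551 in ethanol and 0.615 ± 0.0544 in A41 (SD, n = 3), and in A41 the share of ITGB3 in the summed beta chain RNA was 34.999% ± 2.26, against 21.6% ± 2.90 in ethanol. The ratio to ITGAV, its alpha partner, was 3.76, 4.89 and 3.52 in A41 and at most 3.10 elsewhere. The ratio to ITGB5, the other beta partner of ITGAV described above, did not separate A41: it was 5.74, 4.29 and 3.97 in A41 and reached 4.09 in A34 1. ITGB3 overlaps the antisense gene THCAT158, which averaged 6.74 ± 1.19 scaled TPM in ethanol and 10.2 ± 2.05 in A41; without the strand, reads of the pair cannot be told apart.

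**Figure D3:**
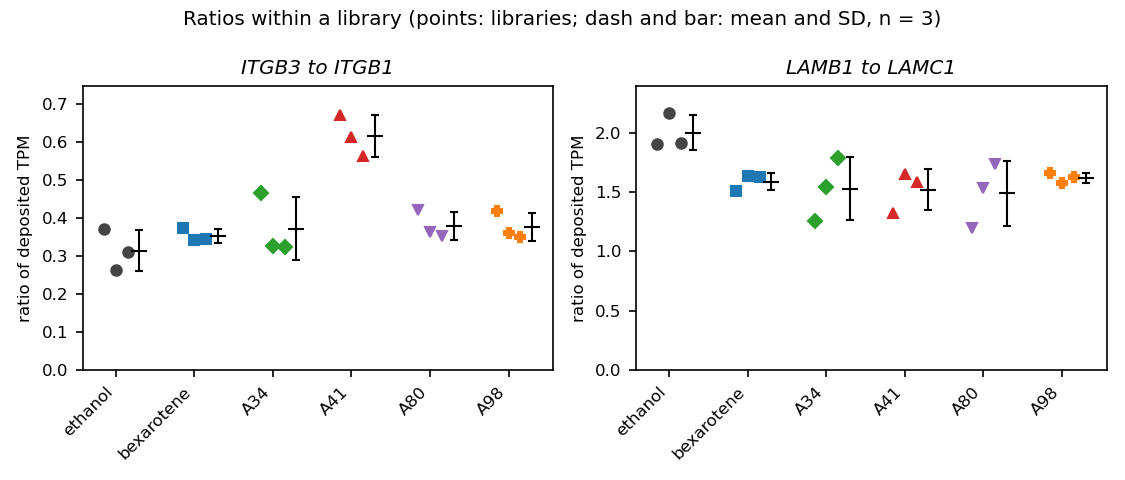
Ratio of deposited TPM of ITGB3 to ITGB1 (left) and of LAMB1 to LAMC1 (right) in each library by treatment group, with the mean and SD of 3 libraries. The A41 libraries are above all others on the left, and all ethanol libraries are above all rexinoid libraries on the right.

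Among laminin alpha chains, LAMA4 and LAMA3 had their highest values in A41 without passing the test in the fit without replicate number. LAMA4, of vascular and mesenchymal laminins, had scaled TPM values of 2.99, 3.82 and 3.90 in ethanol, 3.67, 4.25 and 4.37 in bexarotene, 3.50, 3.68 and 4.68 in A34, 6.03, 5.14 and 8.17 in A41, 2.86, 3.82 and 4.79 in A80, and 4.83, 4.77 and 5.04 in A98. All 3 A41 libraries lay above the other 15, though A41 2 exceeded A98 3 only narrowly. The log2 fold change was 0.69 (SE 0.17, limma adjusted p = 0.086). With replicate number from the titles in the fit, LAMA4 passed (limma adjusted p = 0.021). LAMA3, an epithelial chain near 1 scaled TPM and so measured with little depth, had 0.753, 1.00 and 0.849 in ethanol, 1.31, 1.21 and 1.33 in bexarotene, 0.648, 1.09 and 0.926 in A34, 1.96, 1.36 and 2.52 in A41, 0.883, 0.758 and 1.21 in A80, and 0.859, 0.786 and 1.12 in A98. A41 again lay above all others, by a narrow margin, with a log2 fold change of 0.64 (adjusted p = 0.13). For ITGB3, LAMA3 and LAMA4 together, 3 of 23 chains had every A41 library above all 15 others, where 0.651% of tested genes did, and 0 had every A41 library below (background 0.328%); LAMA3 did not on upper quartile scaling, none of the 3 did on TPM as deposited or on TPM without ribosomal RNA genes, and ITGA4 joined them with factors from all genes above 0.

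**Figure D4:**
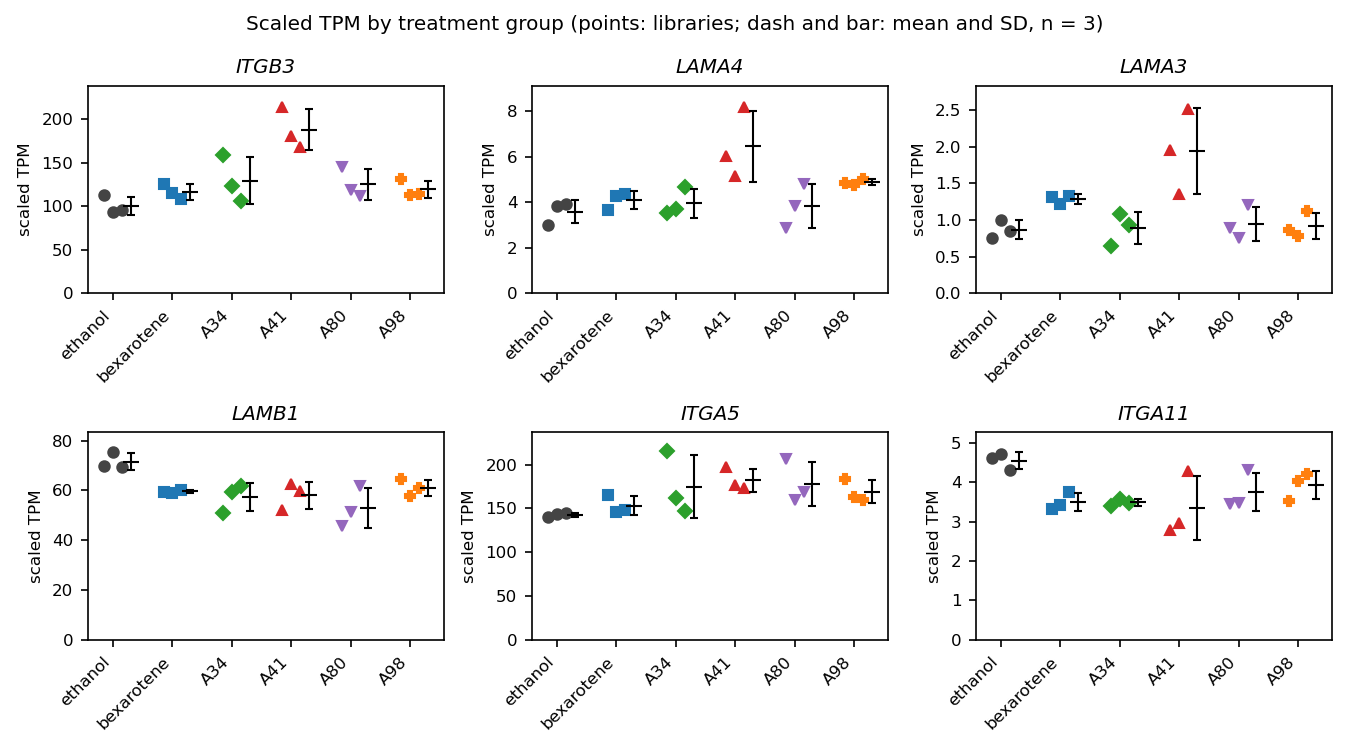
Scaled TPM of ITGB3, LAMA4, LAMA3, LAMB1, ITGA5 and ITGA11 in each library by treatment group, with the mean and SD of 3 libraries. A41 is above all other groups for ITGB3, LAMA4 and LAMA3, ethanol is above all rexinoids for LAMB1 and ITGA11, and ethanol is below them for ITGA5.

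The count of chains whose 3 libraries of a rexinoid all lay above the 3 of ethanol was 2, 1, 7, 1 and 5 for bexarotene, A34, A41, A80 and A98, where 6.87%, 8.22%, 8.27%, 8.6% and 8.49% of tested genes did so. All 3 lay below in 3, 3, 2, 2 and 2 chains in the same order (background 5.9%, 8.36%, 7.67%, 7.78% and 8.18%). The 7 with A41 were ITGA5, ITGA7, ITGB3, LAMA3, LAMA4, LAMA5 and LAMC1.

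In 3 chains, all 15 rexinoid libraries lay on the same side of all ethanol libraries: LAMB1 and ITGA11 below and ITGA5 above. Over all tested genes, 0.569% lay below and 0.816% above in this way. LAMB1 and ITGA11 did so on upper quartile scaling and on TPM without ribosomal RNA genes too, ITGA5 on the first of these but not the second, and none of the 3 did on TPM as deposited. With factors from all genes above 0, a choice added after seeing the data, LAMB1 and ITGA5 did so and ITGA11 did not. ITGA11 and LAMA3 are described here because of these values and were not chosen by the rule for named genes. The 5 rexinoid groups share the 3 ethanol libraries, so their differences from ethanol are not independent.

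The RefSeq sequence upstream of the start of these 3 genes (GRCh38.p14, 5′ to 3′ on the gene's strand, ending next to the gene as the deposited tables place it) is shown because these are the chains that separated all rexinoid libraries from ethanol. Capitals mark GGGCGG, the core of an Sp1 box, on either strand.
LAMB1, chr7:108003214-108003411, minus strand: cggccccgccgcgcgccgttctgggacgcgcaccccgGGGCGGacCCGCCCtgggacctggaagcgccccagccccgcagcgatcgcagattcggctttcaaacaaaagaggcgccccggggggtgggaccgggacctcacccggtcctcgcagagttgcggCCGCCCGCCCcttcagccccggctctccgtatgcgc
ITGA11, chr15:68432164-68432413, minus strand: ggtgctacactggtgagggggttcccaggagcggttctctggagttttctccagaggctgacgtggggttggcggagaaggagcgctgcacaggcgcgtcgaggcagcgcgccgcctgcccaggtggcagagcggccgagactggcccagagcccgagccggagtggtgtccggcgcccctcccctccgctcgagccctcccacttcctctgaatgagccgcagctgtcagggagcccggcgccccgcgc
ITGA5, chr12:54419267-54419516, minus strand: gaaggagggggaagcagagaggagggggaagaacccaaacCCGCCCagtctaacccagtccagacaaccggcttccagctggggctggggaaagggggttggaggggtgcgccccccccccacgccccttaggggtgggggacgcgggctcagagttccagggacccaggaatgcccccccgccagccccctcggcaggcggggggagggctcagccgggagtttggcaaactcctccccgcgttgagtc
LAMB1 held 4 such matches, partly overlapping each other, ITGA5 1 and ITGA11 0. GGGCGG on either strand was in 42.6% of all 35116 RefSeq promoter windows of 250 bases. AGGTCA, the half-site of receptors that pair with a retinoid X receptor, was in 12.1% of all windows on either strand and in 2 of the 32 windows listed for 25 of the 35 chains (ITGAV and LAMA2), and GGGTCA was in 12.1% of all and in 4 of the 32 (ITGA4, ITGAE, ITGAM and ITGAV). Neither is in the 3 windows printed above. A match describes letters and is not a binding site. ITGB3 is not among the 25.

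LAMB1 (ENSG00000091136, chromosome 7, bases 107923799 to 108003213, minus strand) had scaled TPM values of 69.8, 75.6 and 69.3 in ethanol, 59.5, 59.0 and 60.3 in bexarotene, 50.8, 59.4 and 61.8 in A34, 52.1, 62.7 and 59.6 in A41, 45.7, 51.4 and 61.6 in A80, and 64.4, 57.9 and 60.8 in A98. Ethanol libraries were the 3 highest of the 18, and A80 1 was the lowest. Log2 fold changes for bexarotene, A34, A41, A80 and A98 were -0.26, -0.32, -0.30, -0.44 and -0.23 (limma adjusted p = 0.84, 0.27, 0.27, 0.23 and 0.74), and none passed. The mean of the 5 rexinoids differed from ethanol by -0.31 (SE 0.08, 95% interval -0.47 to -0.14, adjusted p = 0.18). The ratio of LAMB1 to its partner LAMC1, which involves no scaling, was 1.91, 2.17 and 1.92 in ethanol. It lay between 1.20 and 1.79 in the 15 rexinoid libraries, with no overlap. Since LAMB1 itself already lay below ethanol in all 15, this ratio is not separate evidence. The ratio of LAMB2 to LAMB1 did overlap. It was 0.298, 0.272 and 0.276 in ethanol, 0.258 in A34 3 and at least 0.311 in all other rexinoid libraries. The gene overlaps DLD on the opposite strand, which averaged 46.4 ± 0.749 in ethanol and 43.6, 44.1, 44.7, 44.4 and 43.3 in the 5 rexinoids in the order above.

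ITGA5 (chromosome 12, bases 54395261 to 54419266, minus strand), the alpha chain of the fibronectin receptor, had scaled TPM values of 140.4, 144 and 145 in ethanol, 165, 147 and 148 in bexarotene, 216, 162 and 147 in A34, 197, 177 and 173 in A41, 207, 159.7 and 169 in A80, and 184, 164 and 160.2 in A98. The lowest rexinoid library, bexarotene 2 at 147, was only narrowly above the highest ethanol library, ethanol 3 at 145. The ratio of ITGA5 to its partner ITGB1 overlapped: it was 0.463, 0.403 and 0.466 in ethanol, and bexarotene 2, A34 2 and A34 3 had 0.431, 0.428 and 0.449. The mean of the 5 rexinoids was 0.25 above ethanol on the log2 scale (SE 0.10, limma adjusted p = 0.37), and the value with A41 was 0.35 (adjusted p = 0.31). ITGA11, a collagen receptor chain of fibroblasts, had scaled TPM values of 4.61, 4.72 and 4.31 in ethanol, 3.32, 3.43 and 3.76 in bexarotene, 3.40, 3.58 and 3.47 in A34, 2.79, 2.95 and 4.28 in A41, 3.46, 3.47 and 4.31 in A80, and 3.52, 4.03 and 4.22 in A98. Its 3 ethanol libraries were the highest of the 18, with A80 3 and A41 3 just below the lowest of them. The mean of the 5 rexinoids differed by -0.28 (SE 0.10, adjusted p = 0.36).

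Replicate numbers in the titles were also tested, since libraries of these data differ by that number; the labels do not say what it marks. In a fit with group and replicate number, 1 of 23 chains, ITGB3, passed the F test (limma adjusted p = 0.015), beside a background of 1.01% of tested genes, and 7 chains had an unadjusted p under 0.05 (background 11.6%). In all 6 groups the library numbered 1 had the highest ITGB3. Means over the 6 groups were 148 ± 36.3 scaled TPM for number 1, 124 ± 29.6 for number 2 and 117 ± 26.0 for number 3 (SD, n = 6). Each SD is over 6 treatments with 1 library each, so it includes the treatment differences, which the test removes. In the fit, number 3 differed from number 1 by -0.32 on the log2 scale. The call was lost without A34 1 (adjusted p = 0.056), without A80 1 (0.072), with no filter on low values (0.059), without the 3 libraries rich in ribosomal RNA (0.055), on TPM without ribosomal RNA genes (0.29) and on TPM as deposited (0.84). Without ethanol 1 the count was 2 with ITGA5, and without A98 1 it was 2 with LAMB3. LAMC1 also had its highest library at number 1 in all 6 groups, and LAMA4 had it at number 3 in all 6, without passing (adjusted p = 0.46 and 0.27).

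Of 36 focal adhesion genes, whose proteins join integrins to actin, 35 were tested. With A41, 1 rose and 1 fell (background 0.755%). In limma 0 were called with bexarotene, A34, A80 or A98 (background 0.0547%, 0.0821%, 0.0438% and 0.0328%). At an unadjusted p under 0.05 there were 1, 4, 5, 5 and 2 of 35 for bexarotene, A34, A41, A80 and A98, beside 5.75%, 10.7%, 10.4%, 9.41% and 6.63% of all tested genes. PTK2, which encodes focal adhesion kinase, had 53.1, 54.8 and 52.0 scaled TPM in ethanol and 72.2, 65.1 and 67.7 in A41, with no overlap (log2 fold change 0.35, SE 0.08, limma adjusted p = 0.048). Its call was lost whichever of the 6 libraries was left out (adjusted p from 0.076 to 0.19) and on TPM as deposited its difference was 0.017. TLN2, a talin that links beta chains to actin, had 12.3, 9.51 and 11.5 in ethanol and 5.87, 7.01 and 8.11 in A41 and fell by 0.60 (SE 0.12, limma adjusted p = 0.028). Leaving out ethanol 1, ethanol 3, A41 1 or A41 2 ended that call (adjusted p up to 0.15). Median log2 fold changes of the 35 genes were 0.029, 0.060, 0.060, 0.073 and 0.060 in the same order, beside -0.0068 to 0.0039 over all tested genes.

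Of 24 other ligands of integrins, 16 were tested, and 1 fell with A41 (background 0.246% for a fall). In limma 0 were called with the other 4 rexinoids. At an unadjusted p under 0.05 there were 4, 4, 6, 7 and 1 of 16 for bexarotene, A34, A41, A80 and A98 (background 5.75%, 10.7%, 10.4%, 9.41% and 6.63%). THBS1, the matrix protein thrombospondin, had 14.2, 11.5 and 12.9 scaled TPM in ethanol and 8.18, 4.59 and 7.01 in A41 without overlap, and fell by 0.89 (SE 0.19, limma adjusted p = 0.042). The call held only where A41 1 was left out and was lost in each of the other 5 omissions (adjusted p up to 0.18). FBN1, which encodes fibrillin, missed the threshold in this fit with A41 (-0.64, adjusted p = 0.053), and CCN2 had its smallest p with A34 (-0.46, adjusted p = 0.18) and THBS2 with A80 (-0.42, adjusted p = 0.24). Median log2 fold changes of the 16 genes were -0.18, -0.14, -0.12, -0.18 and -0.10 for bexarotene, A34, A41, A80 and A98, with 13, 11, 13, 10 and 11 of 16 values below 0, beside medians of -0.0068 to 0.0039 over all tested genes. The value farthest from 0 was nevertheless a rise with each rexinoid (0.70, 1.37, 1.07, 1.18 and 0.80 in the same order), and no rise was called. The lowest values were -0.66, -0.69, -0.89, -0.57 and -0.38. These 5 comparisons share the ethanol libraries. The abundant ligand fibronectin (FN1) averaged 299, and vitronectin (VTN), the ligand for which the integrin of ITGAV and ITGB3 is named, averaged 0.399 and was not tested.

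Partners of laminin in the basement membrane gave 0 calls by limma in all 5 comparisons with ethanol, with 12 of 17 genes tested. At an unadjusted p under 0.05 there were 0, 4, 3, 3 and 0 of 12 for bexarotene, A34, A41, A80 and A98 (background 5.75%, 10.7%, 10.4%, 9.41% and 6.63%). Their smallest p-values were those of SPARC, a collagen-binding matrix protein, with A41 (-0.26, limma adjusted p = 0.20), NID2, which encodes a nidogen, with A80 (-0.36, adjusted p = 0.43), and COL15A1 with A41 (0.69, adjusted p = 0.34). COL15A1 also differed by replicate number (limma F test, adjusted p = 0.0033), number 3 from number 1 by -0.66 on the log2 scale.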

How the data were processed

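RNA depleted of ribosomal RNA by probes and primed at random was sequenced as paired reads, per the labels' protocols. STAR, StringTie and MultiQC with build GRCh38 are named in the submitters' processing notes; versions, the annotation and the treatment of strand are not stated there. Each library came as 1 table. TPM was computed by the authors, per the file headers, and FPKM stands beside it in the deposited tables. Coverage, the deposited signal per base, gave depth through its most common ratio to FPKM; arrays of read counts were not used here, so no count model was run and no counting interval is given. Entries repeating a gene ID were summed.

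TPM was divided by median-of-ratios factors (0.417 to 1.20) from 16349 genes that were tested and above 0 everywhere. Factors from all 21776 genes above 0 were computed first and are an alternative chosen after seeing the data. Log2(scaled TPM + 1) of 18269 genes was fitted with limma 3.58.1 (R 4.3.3, trend, 18 libraries, 6 groups, 12 residual degrees of freedom, prior 3.39), with Benjamini-Hochberg adjustment, threshold 0.05 and 95% intervals. This scale understates changes of low genes. The fit was also run on simulated data. These were independent draws with no effect of replicate number or ribosomal RNA, so they cannot show how the fit behaves under either. Groups and replicate numbers come from the labels; the numbers in the table names differ in part, and the tables of A98 carry the code A90. Pearson's r across genes was 0.950 to 0.980 within groups and reached 0.981 between groups, with 0 identical pairs. The members and lists were chosen with earlier results of these data known. Full values were to be given for chains past the threshold in a comparison of rexinoids with ethanol or bexarotene, with or without the replicate block, and for the chains of highest mean level (4 integrin alpha, 4 integrin beta, 2 laminin alpha, 2 laminin beta and 1 laminin gamma). From each list, genes past the threshold or the 3 of smallest p were named.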

Additional observations from a re-analysis of the deposited data

How the results depend on the processing

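Of 248 recomputed counts of chains called, 228 stayed within 1.5 times the main count. The main count was 0 in all comparisons but A41 against ethanol and replicate number. A main count of 0 stayed only where the recomputed count was also 0. The count for A41 against ethanol stayed in 7 of 12 alternative settings and 6 of 6 omissions of 1 library. For replicate number it stayed in 6 of 10 and 14 of 18. Of 356 recomputed single-gene fold changes, 312 kept their direction and side of the threshold and 0 reversed. With A41 against ethanol the count of 1 chain became 0 on TPM as deposited, 0 with only the groups compared in the fit and 0 when the 3 libraries of high ribosomal RNA share were omitted, where 4, 33 and 48 of all genes were called against 138. For replicate number the count of 1 became 0 with no filter, 0 on TPM as deposited, 0 on TPM without ribosomal RNA genes and 0 with those 3 libraries omitted, and leaving out single libraries gave 0 to 2. Over all genes, leaving out single libraries gave 71 (without ethanol 3) to 113 genes with A41 and 6 (without A80 1) to 222 for replicate number, against 138 and 184. The cause was not tested. Factors from all genes above 0, added after seeing the data, left the counts of chains at an adjusted p under 0.05 as they were in the 12 comparisons refitted; at an unadjusted p under 0.05 the count went from 2 to 1 with A98 and from 5 to 4 for the mean of 5 rexinoids. FBN1 with A41 passed with these factors (adjusted p = 0.038), with a filter at 5 TPM (0.037), on TPM without ribosomal RNA genes (0.047) and with the replicate block from titles (0.037).

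The replicate number was not taken as a pairing in the main fit, since the labels do not say what it marks. Deviations of same-numbered libraries correlated over 0.1 in 11 of 45 pairs (range -0.36 to 0.31, median 0.029). Pairs of other numbers did so in 7 of 90 (range -0.27 to 0.45, median -0.0057), and 9 of 18 libraries correlated best with their own number. The highest same-numbered pair was ethanol 2 with A41 2, and the highest pair of other numbers was bexarotene 1 with A41 2. These are the libraries rich in ribosomal RNA, and its part in the correlations was not tested. With the replicate block from titles the count with A34 against ethanol was 1, ITGB3 (limma blocked adjusted p = 0.039). With A41 against ethanol it was 2, ITGB3 (1.2e-05) and LAMA4 (0.021). For the mean of 5 rexinoids it was 1, ITGB3 (0.0028), and for any difference among rexinoids it was 1. For A41 against each of bexarotene, A34, A80 and A98 it was 1, ITGB3 (blocked adjusted p = 0.00071, 0.0047, 0.0021 and 0.0011). The replicate block from the numbers in the table names gave 2 with A41 and 1 for each of the mean, A41 against bexarotene and any difference. No other count of chains at an adjusted p under 0.05 changed under either block; pairs among the coded compounds were fitted with the block from titles only. PTK2, TLN2 and THBS1 with A41 were also lost with no filter (adjusted p = 0.081, 0.054 and 0.11), with only the groups compared (0.19, 0.32 and 0.24), without the 3 libraries (0.15, 0.10 and 0.26) and on TPM as deposited (0.99, 0.82 and 0.82), and PTK2 on TPM without ribosomal RNA genes (0.44), on upper quartile scaling (0.059) and with the block from table names (0.073). Depth of 1.31 to 3.89 gigabases limits chains near 1 TPM most, such as LAMA2 and LAMA3.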
